A study of Mus musculus with 8 samples.

Results

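The 37 genes described here encode proteins of DNA replication and mitosis. They were taken by symbol from the deposited gene table, which held all 37 among its 54532 gene rows. By role, 10 license replication origins, 7 serve DNA synthesis, 4 control entry into S phase and 16 act from G2 to the end of mitosis. The first 3 roles together make up the 21 S phase genes. Ccna2 and Top2a, which also work during S phase, were placed with the mitotic genes.

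The tissue was iWAT, the inguinal white fat that lies under the skin of the groin, from male mice that were all fed a high-fat diet (HFD). Wild-type mice (WT) gave 4 libraries, and mice with a knockout of the zinc-finger transcription factor KLF10 in adipocytes (KLF10AKO) gave the other 4. The sources used here name no Cre driver, strain, age or time on the diet. No label ties a library to an animal, so the p-values below reflect how libraries vary, which may in part be technical. The study asked which transcripts of iWAT differ when adipocytes lack KLF10.

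A cell that is to divide first licenses its replication origins. The origin recognition complex, Cdc6 and Cdt1 load the ring-shaped MCM helicase, whose subunits are Mcm2 to Mcm7, and geminin (Gmnn) holds Cdt1 back once S phase has begun. E2F transcription factors switch many of these genes on when cyclin-dependent kinases release them from the retinoblastoma family of pocket proteins, while many genes of mitosis are switched later through a promoter element called CHR. Mature adipocytes have left the cell cycle, and the cycling cells of a fat pad are mostly precursors, immune cells and vascular cells.

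The recovered reads ranged from 15537863 to 17499132 per library, and mitochondrial transcripts took 2.82% to 5.60% of them. Klf10 itself was at 16.7 to 21.1 FPKM in WT and at 9.39 to 9.75 FPKM in KLF10AKO, with no overlap (log2 change -0.88, limma adjusted p = 8.96e-06). FPKM is a fragment count divided by gene length and by library size, and the authors had adjusted the sizes. Cell type markers differed widely between the groups. All 12 adipocyte markers were lower in KLF10AKO, with a summed level of 10952 to 11844 FPKM in WT and of 3901 to 4697 FPKM in KLF10AKO. All 10 B cell markers and all 10 T cell markers were higher, though in each list 8 had a WT mean under the level filter described below. KLF10AKO replicate 4 stood apart, since its summed skeletal muscle markers were at 34.2 FPKM against 4295 to 9996 FPKM in the other 3 KLF10AKO libraries and 166 to 219 FPKM in WT.

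Promoter sequences were read for 31 of the 37 genes from RefSeq on GRCm38.p6, as windows of 300 bases that run from 250 before to 50 after a start site. The genes not matched were Mcm4, Gmnn, Ccne2, Ccna2, Aurkb and Tpx2. Each window was searched on both strands for E2F motifs, spelled TTTCCCGC, TTTCGCGC, TTTGCCGC and TTTGGCGC, and for the CHR, spelled TTTGAA and TTTAAA. The spelling TTTAAA is its own reverse complement. An E2F spelling lay in 8 of 18 S phase windows (44.4%), in 1 of 13 mitotic windows (7.69%) and in 2.26% of all 32851 windows of the table. Within the S phase genes, 6 of the 8 licensing windows held one. A CHR spelling lay in 4 of 18 S phase windows (22.2%), in 12 of 13 mitotic windows (92.3%), with Bub1 as the exception, and in 27.6% of all windows. The CCAAT box, spelled CCAAT and also searched on both strands, lay in 12 of 18 S phase windows, in 12 of 13 mitotic windows and in 37.4% of all windows. A match shows only that these letters are present.

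The windows of 6 genes are printed 5′ to 3′ on the gene's own strand, with E2F and CHR matches in capitals. They are shown for genes whose values are given in full below. Cdt1 (chr8:122567765-122568064, plus strand), Mcm3 (chr1:20820263-20820562, minus strand) and Mcm5 (chr8:75109259-75109558, plus strand) are licensing genes that rose. Ccnb2 (chr9:70421505-70421804, minus strand) and Cdc20 (chr4:118437294-118437593, minus strand) are mitotic genes that did not pass the test. Cdk1 (chr10:69352863-69353162, minus strand) is the mitotic gene that fell.
Cdt1: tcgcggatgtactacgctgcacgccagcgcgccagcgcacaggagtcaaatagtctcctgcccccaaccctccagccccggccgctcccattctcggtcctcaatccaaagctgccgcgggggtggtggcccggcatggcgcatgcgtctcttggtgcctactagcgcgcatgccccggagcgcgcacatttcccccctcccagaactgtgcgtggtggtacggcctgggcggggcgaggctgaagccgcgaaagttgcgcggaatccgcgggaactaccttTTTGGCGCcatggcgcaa
Mcm3: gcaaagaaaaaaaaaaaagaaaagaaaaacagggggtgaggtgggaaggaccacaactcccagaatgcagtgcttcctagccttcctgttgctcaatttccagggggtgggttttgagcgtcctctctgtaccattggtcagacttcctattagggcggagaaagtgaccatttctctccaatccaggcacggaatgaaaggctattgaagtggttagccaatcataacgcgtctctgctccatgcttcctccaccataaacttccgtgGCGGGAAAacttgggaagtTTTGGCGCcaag
Mcm5: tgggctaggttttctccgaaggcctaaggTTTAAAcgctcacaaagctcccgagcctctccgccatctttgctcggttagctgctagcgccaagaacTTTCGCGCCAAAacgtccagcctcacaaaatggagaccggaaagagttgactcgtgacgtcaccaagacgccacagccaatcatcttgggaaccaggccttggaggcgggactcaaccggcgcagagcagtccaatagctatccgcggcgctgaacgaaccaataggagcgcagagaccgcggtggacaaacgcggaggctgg
Ccnb2: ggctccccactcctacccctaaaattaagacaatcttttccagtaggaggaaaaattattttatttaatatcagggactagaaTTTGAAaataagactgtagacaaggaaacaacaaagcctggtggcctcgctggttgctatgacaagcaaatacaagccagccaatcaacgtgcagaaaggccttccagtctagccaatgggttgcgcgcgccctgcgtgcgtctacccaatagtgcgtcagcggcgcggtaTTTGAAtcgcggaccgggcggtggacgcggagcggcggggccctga
Cdc20: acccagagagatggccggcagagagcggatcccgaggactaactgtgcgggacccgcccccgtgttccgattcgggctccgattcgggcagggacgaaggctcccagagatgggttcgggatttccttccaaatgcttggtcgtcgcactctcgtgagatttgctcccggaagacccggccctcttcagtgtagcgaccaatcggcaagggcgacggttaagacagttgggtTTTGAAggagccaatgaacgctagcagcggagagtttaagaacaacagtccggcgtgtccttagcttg
Cdk1: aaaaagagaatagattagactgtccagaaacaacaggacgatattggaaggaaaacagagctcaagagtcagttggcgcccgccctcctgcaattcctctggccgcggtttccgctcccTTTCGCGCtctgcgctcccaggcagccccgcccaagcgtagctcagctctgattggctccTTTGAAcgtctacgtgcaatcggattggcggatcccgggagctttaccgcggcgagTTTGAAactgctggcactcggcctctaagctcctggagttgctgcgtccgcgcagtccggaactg
The capitals in Cdt1 and Mcm3 are E2F spellings downstream of the start site, at position 33 in Cdt1 and at positions 20 and 39 in Mcm3. In Mcm5 the CHR spelling TTTAAA lies at position -221, and the longer run of capitals holds a pair of overlapping E2F matches at -153 and -149. Ccnb2 carries CHR spellings at -167 and 5, and Cdc20 carries one at -18. Cdk1 was the sole mitotic window with both kinds, an E2F spelling at -131 and CHR spellings at -71 and -15. S phase genes with an E2F spelling had a median log2 change of 0.94 (n = 8, -0.05 to 2.64), and those without one had 0.76 (n = 10, -0.85 to 1.93). The ranges overlap, and both the gene that rose most, Cdt1, and one that did not move past the test, Cdc6, were among the carriers. For a CHR spelling the S phase medians were 1.86 with it (n = 4, 0.91 to 2.03) and 0.6 without (n = 14, -0.85 to 2.64). For the CCAAT box they were 0.82 with it (n = 12, 0.09 to 2.03) and 0.47 without (n = 6, -0.85 to 2.64). These ranges overlap too, and no difference by motif was tested.

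Licensing genes rose. Of the 10, 9 passed the level filter (a mean of at least 0.5 FPKM over the 8 libraries), and 8 of these were called higher and 0 lower in KLF10AKO at an adjusted p under 0.05 (limma with Benjamini-Hochberg adjustment over 16012 genes). Over all genes tested, 39.4% were called higher and 34.9% lower, so that 74.3% passed in one direction or the other. The median log2 change of the 10 licensing genes was 1.28 (range -0.05 to 2.64), beside a median of 0.05 over all genes tested. Log2 changes here are of FPKM + 0.5, which understates the change of low genes. In bulk tissue, fewer cells of a type and less RNA per cell cannot be told apart.

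**Figure D1:**
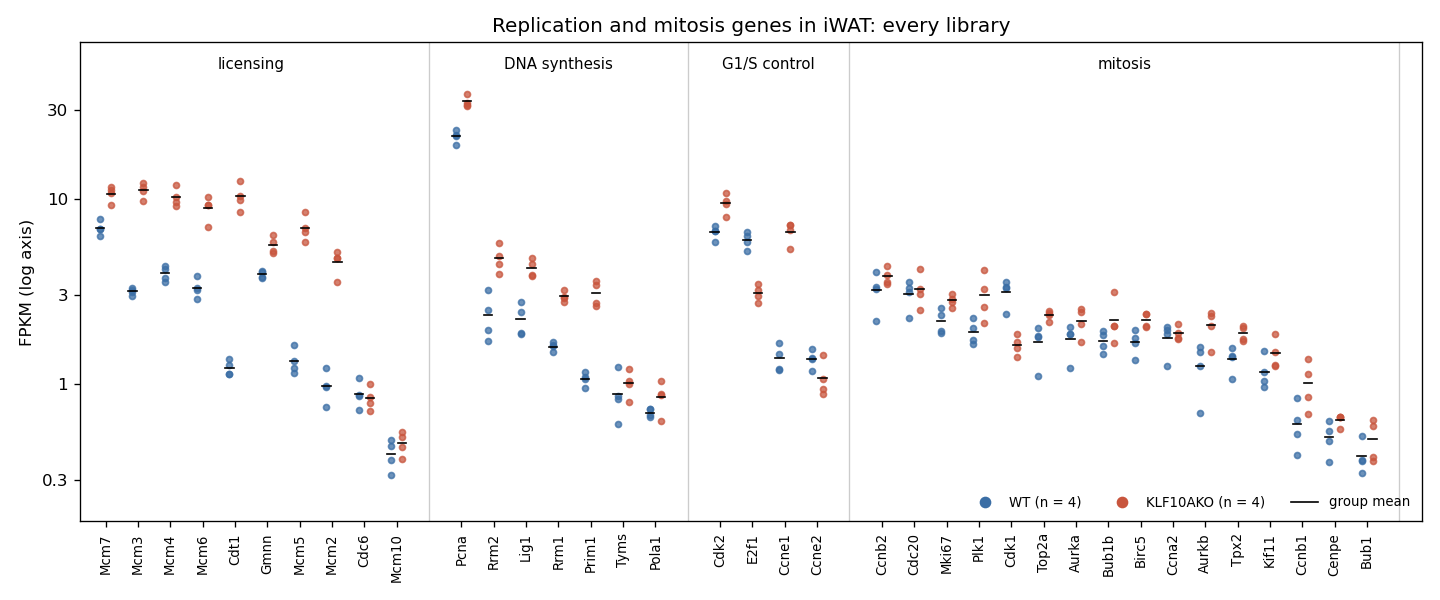
FPKM (log axis) of each gene in every library, with WT in blue and KLF10AKO in red (n = 4 each) and short lines at the group means, ordered by role and mean level. The red points of most licensing genes sit clear above the blue ones, while the points of most mitotic genes interleave.

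Cdt1, which loads the helicase onto origins, changed most of all 37 genes. From replicate 1 to replicate 4, its FPKM in WT read 1.26, 1.13, 1.36 and 1.13, and in KLF10AKO 10.3, 9.87, 8.48 and 12.5. The groups lay far apart, at means of 1.22 ± 0.111 and 10.3 ± 1.69 FPKM (SD, n = 4 each). The log2 change was 2.64 (SE 0.112, 95% interval 2.39 to 2.90, adjusted p = 1.17e-07). The gene (ENSMUSG00000006585) lies on the plus strand of chromosome 8 of mm10, from 122568015 to 122573554.

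Geminin, the inhibitor of Cdt1, rose far less. Gmnn was at 3.79, 4.02, 4.09 and 3.72 FPKM in WT against 6.34, 5.07, 5.19 and 5.84 FPKM in KLF10AKO, without overlap (log2 change 0.47, adjusted p = 0.000582). The level of Cdt1 relative to Gmnn therefore went from 0.281 to 0.332 in WT libraries to 1.63 to 2.15 in KLF10AKO libraries. In every WT library Gmnn was the more abundant transcript per length, and in every KLF10AKO library Cdt1 was.

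All 6 subunits of the MCM helicase were called higher, with a median log2 change of 1.49. Mcm5 changed most among them, at 1.21, 1.61, 1.33 and 1.14 FPKM in WT and 6.64, 6.95, 5.86 and 8.47 FPKM in KLF10AKO (log2 change 2.03, SE 0.121, adjusted p = 8.25e-07). Mcm2 was at 0.751, 0.96, 1.22 and 0.969 FPKM in WT and 4.78, 4.80, 3.56 and 5.16 FPKM in KLF10AKO (log2 change 1.78, adjusted p = 2.98e-06). In both genes the lowest KLF10AKO library lay well above the highest WT library.

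Mcm3 and Mcm4, 2 of the 3 licensing genes of highest mean level, showed the same separation. Mcm3 (ENSMUSG00000041859, chromosome 1, 20802968 to 20820312, minus strand) was at 3.28, 3.21, 2.98 and 3.14 FPKM in WT and 11, 11.5, 9.70 and 12.2 FPKM in KLF10AKO (log2 change 1.66, SE 0.0754, adjusted p = 1.69e-07). Mcm4 was at 3.56, 4.19, 3.75 and 4.33 FPKM in WT and 9.16, 10.2, 9.59 and 11.8 FPKM in KLF10AKO (log2 change 1.26, adjusted p = 2.67e-06). Mcm6 moved likewise, from a mean of 3.29 ± 0.390 to 8.92 ± 1.36 FPKM (SD, n = 4 each; log2 change 1.31, adjusted p = 1.11e-05).

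Mcm7 was the subunit that moved least and the most abundant one in WT. It was at 6.85, 7.77, 6.86 and 6.26 FPKM in WT and 10.7, 11.1, 9.24 and 11.5 FPKM in KLF10AKO, without overlap (log2 change 0.58, adjusted p = 0.000247). Its exons share 321 bases with Ap4m1 and 64 bases with Cops6 on the opposite strand, and Cops6 was at a mean of 36.2 FPKM, so without strand in the counting part of its reads cannot be assigned.

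The 6 subunits sit in the helicase in equal number, and their transcripts were closer to equal in KLF10AKO. The ratio of the highest to the lowest subunit was 9.13, 8.10, 5.64 and 6.46 in WT and 2.31, 2.40, 2.73 and 2.35 in KLF10AKO. Mcm2 was the lowest in all 8 libraries, whereas the highest was Mcm7 in every WT library and Mcm3 in every KLF10AKO library. Summed over the subunits, the level was 18.5 to 21.5 FPKM in WT and 45 to 59.3 FPKM in KLF10AKO.

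Cdc6, the partner of Cdt1 in loading the helicase, did not pass. It was at 0.858, 0.724, 0.866 and 1.08 FPKM in WT and 0.716, 0.786, 0.844 and 0.997 FPKM in KLF10AKO (log2 change -0.05, 95% interval -0.33 to 0.23, adjusted p = 0.738). The groups overlapped throughout. Mcm10, which helps to activate the loaded helicase, lay under the level filter and was not tested, at 0.321 to 0.496 FPKM in WT and 0.394 to 0.545 FPKM in KLF10AKO. All 8 licensing genes that were called higher also had 4 KLF10AKO values above all 4 WT values, a separation seen in 36.2% of all genes tested.

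DNA synthesis genes rose more evenly. Of 7 tested, 5 were called higher and 0 lower (39.4% of all genes tested were called higher), with a median log2 change of 0.73 (range 0.14 to 1.19). Pcna, the sliding clamp of the replicative polymerases, was the most abundant of the 37 genes, at 21.8, 22.2, 23.6 and 19.5 FPKM in WT and 32.3, 33.1, 31.8 and 37 FPKM in KLF10AKO. No library of one group reached the other (log2 change 0.61, SE 0.0749, adjusted p = 7.12e-05).

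Ribonucleotide reductase, which makes the deoxynucleotides, rose in both of its subunits. Rrm2, the subunit whose supply follows S phase, was at 2.51, 1.71, 3.2 and 1.94 FPKM in WT and 4.93, 4.45, 3.94 and 5.77 FPKM in KLF10AKO (log2 change 0.91, SE 0.172, adjusted p = 0.00118). Its WT libraries spread almost as widely as its KLF10AKO libraries, and no values overlapped. Rrm1 went from a mean of 1.59 ± 0.0772 to 2.97 ± 0.180 FPKM (SD, n = 4 each; log2 change 0.73, adjusted p = 1.8e-05).

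Prim1, the catalytic subunit of primase, changed most in this group. It was at 0.952, 1.06, 1.15 and 1.09 FPKM in WT and 2.73, 3.41, 2.64 and 3.57 FPKM in KLF10AKO (log2 change 1.19, adjusted p = 1.04e-05). Lig1, the ligase that joins Okazaki fragments, was at 1.88, 2.75, 2.45 and 1.85 FPKM in WT and 3.89, 4.44, 3.81 and 4.81 FPKM in KLF10AKO (log2 change 0.80, adjusted p = 0.000345). Both were separated by group.

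Pola1, which encodes the catalytic subunit of the polymerase that works with primase, did not follow Prim1. It was at 0.676, 0.730, 0.726 and 0.657 FPKM in WT and 1.03, 0.873, 0.626 and 0.881 FPKM in KLF10AKO (log2 change 0.17, 95% interval -0.12 to 0.45, adjusted p = 0.247). KLF10AKO replicate 3 lay below every WT library. Tyms, thymidylate synthase, was at 0.858, 0.830, 1.23 and 0.604 FPKM in WT and 0.797, 0.995, 1.04 and 1.20 FPKM in KLF10AKO (log2 change 0.14, adjusted p = 0.434), and its groups overlapped.

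The 4 genes that control entry into S phase moved in different directions. Of these, 2 were called higher, 1 lower and 1 did not pass, with a median log2 change of 0.12 (beside 39.4% and 34.9% of all genes called higher and lower). Cyclin E1, which drives Cdk2 at the border of G1 and S phase, rose: Ccne1 was at 1.18, 1.45, 1.65 and 1.20 FPKM in WT and 7.23, 7.17, 5.34 and 6.75 FPKM in KLF10AKO (log2 change 1.93, SE 0.119, adjusted p = 9.85e-07). Its paralogue Ccne2 was at 1.36, 1.17, 1.54 and 1.38 FPKM in WT and 1.06, 0.935, 0.884 and 1.43 FPKM in KLF10AKO (log2 change -0.25, 95% interval -0.54 to 0.04, adjusted p = 0.106), and without KLF10AKO replicate 4 it passed as lower (log2 change -0.35, adjusted p = 0.0195). The paralogues were at like levels in WT, with a ratio of Ccne1 to Ccne2 of 0.869 to 1.24, and the ratio was 4.73 to 7.67 in KLF10AKO. Ccne2 shares 609 exon bases with Ints8 on the opposite strand.

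Cdk2, the kinase partner of the E cyclins, was at 6.70, 6.70, 5.84 and 7.09 FPKM in WT and 9.35, 9.70, 8.0 and 10.8 FPKM in KLF10AKO (log2 change 0.49, adjusted p = 0.00142). E2f1, an activator of S phase genes, fell. It was at 6.30, 6.63, 5.81 and 5.20 FPKM in WT and 3.21, 3.44, 2.99 and 2.73 FPKM in KLF10AKO, without overlap (log2 change -0.85, SE 0.0923, adjusted p = 3.31e-05), and its direction turned to 0.55 when each library was scaled to its adipocyte markers. That scaling moved the median log2 change of all genes tested by 1.34, to 1.38, and left 1.68% of them called lower. A turn in direction thus follows from it for most genes that fell, and E2f1 stayed below that median. Adipocyte markers fell in the same libraries, as given above, and their part in the level of E2f1 was not tested.

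**Figure D2:**
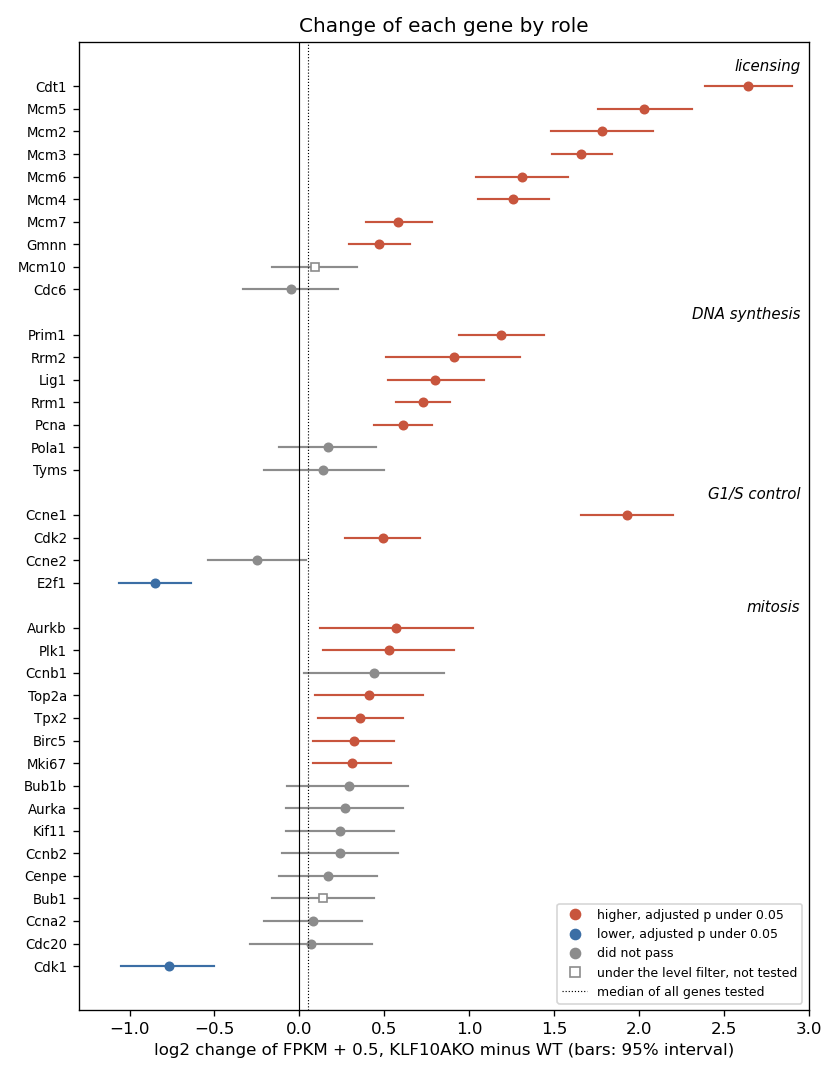
Log2 change of FPKM + 0.5 (KLF10AKO minus WT) of each gene with its 95% interval, by role, in which red and blue mark calls higher and lower, grey no call, open squares genes under the level filter, and the dotted line the median of all genes tested. Changes run up to 2.64 among licensing genes and to no more than 0.57 among mitotic genes. E2f1 and Cdk1 lie to the left of 0, a direction that turned when libraries were scaled to adipocyte markers. That scaling moved the median of all genes by 1.34.

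Mitotic genes moved little. Of the 16, 15 passed the level filter, 6 were called higher, 1 lower and 8 did not pass, which puts the share called higher near the 39.4% of all genes tested. The share called lower was well under the 34.9% of all genes tested, and 15 of the 16 changes were positive. Their median log2 change was 0.28 (range -0.77 to 0.57), and none reached an absolute log2 change of 1, whereas 8 of the 21 S phase genes did. In 12 of the 16 the groups overlapped, whereas 36.2% of all genes tested had 4 KLF10AKO values above all 4 WT values and 33.0% had them below. The genes whose 4 KLF10AKO values all lay above WT were Top2a, Birc5 and Tpx2, and Cdk1 was the one gene with all 4 below.

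The cyclins that take cells into mitosis did not pass. Ccnb2, the most abundant mitotic gene by mean level, was at 3.24, 3.34, 4.0 and 2.18 FPKM in WT and 3.86, 3.54, 3.46 and 4.33 FPKM in KLF10AKO (log2 change 0.24, adjusted p = 0.177). A near-copy, Ccnb2-ps, had a mean of 1.38 FPKM, so the split of reads between the pair is uncertain. Ccnb1 was at 0.635, 0.414, 0.837 and 0.533 FPKM in WT and 0.688, 1.36, 0.850 and 1.13 FPKM in KLF10AKO (log2 change 0.44, 95% interval 0.03 to 0.85, adjusted p = 0.0514). Ccna2, the cyclin of S phase and G2, was at 1.85, 1.94, 2.02 and 1.25 FPKM in WT and 1.89, 1.74, 1.76 and 2.11 FPKM in KLF10AKO (log2 change 0.08, 95% interval -0.21 to 0.37, adjusted p = 0.600). In each of the 3 cyclins at least one KLF10AKO library lay inside the WT range.

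Cdk1, the kinase these cyclins activate, fell. It was at 3.56, 3.30, 3.34 and 2.39 FPKM in WT and 1.68, 1.85, 1.40 and 1.56 FPKM in KLF10AKO (log2 change -0.77, SE 0.122, adjusted p = 0.000373), and its change was 0.50 when libraries were scaled to adipocyte markers, where the median of all genes was 1.38. The gene (ENSMUSG00000019942) lies on the minus strand of chromosome 10, from 69335146 to 69352938. Its partner cyclins and its S phase relative Cdk2 thus did not share its direction, and the ratio of Cdk2 to Cdk1 was 1.75 to 2.97 in WT and 5.25 to 6.93 in KLF10AKO.

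The spindle checkpoint and its target were among the genes that did not pass. Cdc20, the activator of the anaphase-promoting complex, had the smallest change, at 3.15, 3.28, 3.53 and 2.26 FPKM in WT and 3.05, 3.24, 2.51 and 4.16 FPKM in KLF10AKO (log2 change 0.07, 95% interval -0.29 to 0.43, adjusted p = 0.706). Bub1b, a checkpoint protein, was at 1.83, 1.59, 1.93 and 1.45 FPKM in WT and 2.05, 2.05, 1.66 and 3.13 FPKM in KLF10AKO (log2 change 0.29, adjusted p = 0.131). Bub1, the checkpoint kinase, lay under the level filter, at 0.384, 0.387, 0.520 and 0.328 FPKM in WT and 0.400, 0.593, 0.380 and 0.638 FPKM in KLF10AKO. All 3 overlapped between groups.

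The motors and the aurora A kinase also overlapped. Kif11, which pushes spindle poles apart, was at 0.959, 1.15, 1.51 and 1.03 FPKM in WT and 1.26, 1.86, 1.25 and 1.49 FPKM in KLF10AKO (log2 change 0.24, adjusted p = 0.151). Cenpe, a motor of the kinetochore, was at 0.629, 0.488, 0.557 and 0.379 FPKM in WT and 0.661, 0.568, 0.659 and 0.664 FPKM in KLF10AKO (log2 change 0.17, adjusted p = 0.247). Aurka, the kinase of the spindle poles, was at 1.85, 1.85, 2.03 and 1.21 FPKM in WT and 2.52, 2.10, 2.44 and 1.68 FPKM in KLF10AKO (log2 change 0.27, adjusted p = 0.138). In Aurka the lowest KLF10AKO library was replicate 4, the library that was highest in 10 of the 16 mitotic genes.

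The 6 mitotic genes that rose did so by small amounts. Aurkb, the kinase of the chromosomal passenger complex, had the largest change, at 1.48, 1.57, 1.24 and 0.693 FPKM in WT and 2.06, 2.41, 1.48 and 2.31 FPKM in KLF10AKO (log2 change 0.57, SE 0.196, adjusted p = 0.0256). Mki67, the Ki-67 protein used to mark cycling cells, was at 2.35, 1.89, 2.58 and 1.93 FPKM in WT and 2.88, 2.78, 2.55 and 3.07 FPKM in KLF10AKO (log2 change 0.31, adjusted p = 0.0207). In both, a KLF10AKO library reached down into the WT range.

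Plk1, the polo-like kinase, was at 1.64, 1.72, 2.0 and 2.26 FPKM in WT and 2.13, 3.26, 2.61 and 4.10 FPKM in KLF10AKO (log2 change 0.53, adjusted p = 0.0199). Top2a, the topoisomerase that untangles chromosomes, was at 1.78, 1.82, 2.0 and 1.10 FPKM in WT and 2.15, 2.42, 2.34 and 2.48 FPKM in KLF10AKO (log2 change 0.41, adjusted p = 0.0252). Top2a was separated by group, if narrowly, and Plk1 was not. Birc5, the survivin subunit of the passenger complex, and Tpx2, a spindle assembly factor, changed by 0.32 and 0.36 on the log2 scale (adjusted p = 0.0220 and 0.0146).

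These mitotic calls changed with the scale and, since several lay near the threshold, with the libraries included. Under quantile normalization, which moved the median of all genes by -0.20, none of the 6 passed in limma (adjusted p = 0.257 to 0.946), 0 mitotic genes were higher at an unadjusted p under 0.05, and the median mitotic change was -0.02. Quantile normalization called 30.9% of all genes higher and 44.1% lower. With voom on recovered reads, which moved the median of all genes by 0.22, 12 mitotic genes were called higher, beside 46.2% of all genes. TPM called 10 of them higher (44.0% of all genes), and scaling to adipocyte markers all 15 tested (85.5%). Without KLF10AKO replicate 4 the count of mitotic genes called higher was 2, and without KLF10AKO replicate 2 it was 3. With WT compared to KLF10AKO replicate 4 alone, it was 2, beside 32.4% of all genes called higher and 29.7% lower. The group then held 1 library, and the changes themselves were larger, with a mitotic median of 0.41 and Aurkb at 0.72, Top2a at 0.48 and Mki67 at 0.42. By gene, Aurkb lost its call without KLF10AKO replicate 1, 2 or 4 (adjusted p = 0.0528 to 0.0689) and Mki67 without KLF10AKO replicate 1 or 4 or WT replicate 2 or 4 (0.0503 to 0.0543). Plk1 lost it without KLF10AKO replicate 2 or WT replicate 1 or 2 (0.0502 to 0.0538), Top2a without KLF10AKO replicate 2 or 4 (0.0548 to 0.0573) and Birc5 without KLF10AKO replicate 3 or 4 (0.0521 to 0.0538), while Tpx2 kept its call in all 8 omissions. In these omissions the log2 changes stayed close to those with all libraries, at 0.50 to 0.57 for Aurkb, 0.26 to 0.30 for Mki67, 0.47 to 0.49 for Plk1, 0.39 to 0.40 for Top2a and 0.29 for Birc5. Conversely, Ccnb1 passed without KLF10AKO replicate 1 (adjusted p = 0.0257) or WT replicate 3 (0.0319), and Bub1b without KLF10AKO replicate 3 (0.0477). The count of S phase genes called higher was 15 under quantile normalization and under each of these omissions, and 16 with voom. S phase genes called lower rose from 1 to 3 under quantile normalization, where Cdc6 (log2 change -0.45, adjusted p = 0.0138) and Ccne2 (-0.61, adjusted p = 0.00323) passed as lower.

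The comparison of S phase with mitotic genes gave a median log2 change of 0.73 for the 21 S phase genes and of 0.28 for the 16 mitotic genes, a difference of 0.45. Genes are not replicates, so the difference was not tested and is given by library. Relative to the WT mean of each gene, the S phase median less the mitotic median came to -0.08, 0.00, -0.12 and 0.18 for WT libraries, and to 0.44, 0.47, 0.47 and 0.42 for KLF10AKO libraries, by replicate number. Every KLF10AKO library lay above every WT library, and the 4 KLF10AKO values had an SD of 0.0245. The WT values spread more widely, from -0.12 to 0.18, so that SD does not measure the uncertainty of the difference. The S phase median stayed above the mitotic median under each alternative tried, with differences of 0.38 to 0.77.

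**Figure D3:**
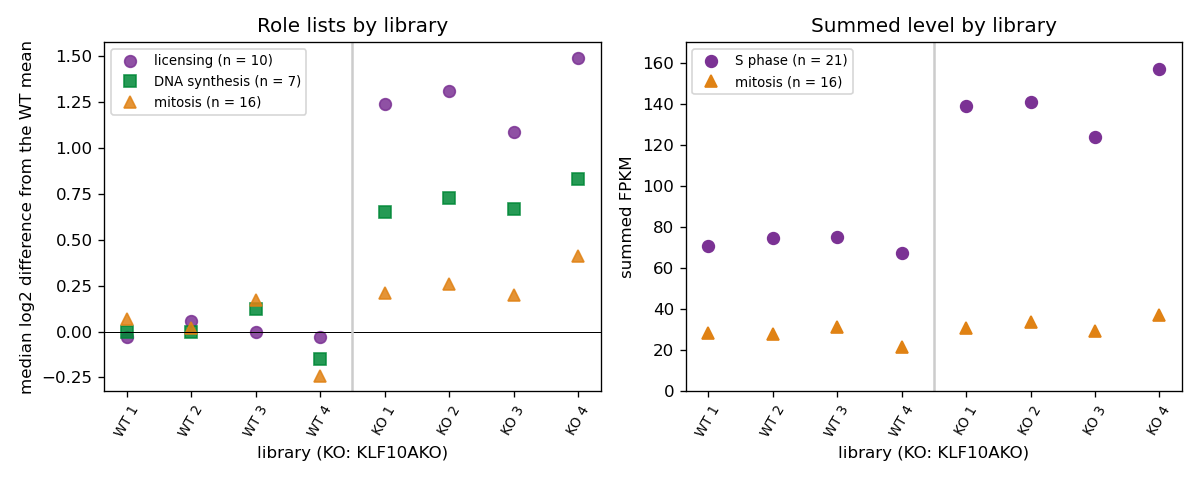
Left, the median log2 difference from the WT mean over the genes of each role in each library (4 WT, 4 KLF10AKO); right, the summed FPKM of the 21 S phase and the 16 mitotic genes. The summed S phase level is 67.4 to 75 FPKM in WT and 124 to 157 FPKM in KLF10AKO. The summed mitotic levels of KLF10AKO replicates 1 and 3 (31.1 and 29.4 FPKM) lie inside the WT range of 21.4 to 31.6 FPKM.

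In summed level the split was plainer still. The S phase genes came to 70.8, 74.7, 75 and 67.4 FPKM in WT and to 139, 141, 124 and 157 FPKM in KLF10AKO. The mitotic genes came to 28.5, 27.8, 31.6 and 21.4 FPKM in WT and to 31.1, 33.8, 29.4 and 37.3 FPKM in KLF10AKO. The S phase sums do not overlap and the mitotic sums do.

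Single libraries held the same rank in many genes. WT replicate 4 was the lowest WT library in 12 of the 16 mitotic genes and WT replicate 3 the highest in 12, while among the 21 S phase genes these counts were 10 and 10. KLF10AKO replicate 4 was the highest of its group in 17 of the 21 S phase genes, and KLF10AKO replicate 3 the lowest in 15. Some of these ranks ran beside those of cell type markers. In KLF10AKO the order of the libraries by summed S phase level and by summed mitotic level was the order by summed B cell markers (1455, 1546, 1212 and 1796 FPKM in replicates 1 to 4, against 3.01 to 4.72 FPKM in WT) and by summed T cell markers (361, 386, 298 and 441 FPKM, against 2.38 to 3.85 FPKM). It was the reverse of the order by summed muscle markers, at 5674, 4295, 9996 and 34.2 FPKM. In WT the B cell sums were 3.55, 3.01, 3.95 and 4.72 FPKM and the T cell sums 3.85, 2.38, 3.46 and 2.49 FPKM. Neither followed the WT order by summed S phase or mitotic level.

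In WT the order by mitotic level was the reverse of the order by trophoblast markers, at 19.0, 24.4, 12.5 and 35.7 FPKM, which were at 0.128 to 0.350 FPKM in KLF10AKO. The WT order by S phase level was not that reverse. Of the 9 trophoblast markers, 3 passed the level filter, through WT alone since their KLF10AKO means were under it, so the direction of their calls followed from the filter. Over all 9, the KLF10AKO values lay below all WT values in 5 and above in 0, beside 33.0% and 36.2% of all genes tested. Prl3b1, Tpbpa, Hand1 and Ctsq had no reads in any KLF10AKO library, and Prl3d1 and Gcm1 had none in any of the 8. With 4 libraries a group, no correlation was computed, and the part of lymphocytes, muscle, placental transcripts and adipocytes in the levels of replication and mitosis genes was not tested.

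Lymphocytes divide in germinal centres, and the markers of those B cells moved in both directions. Of 8 germinal centre markers, 4 passed the level filter, 1 was called higher (Gcsam, with a WT mean under the filter) and 3 lower, the last including Fas and Bcl6. Over all genes tested, 39.4% were called higher and 34.9% lower. In 3 of the 8 all KLF10AKO values lay above WT and in 3 below, beside 36.2% and 33.0% of all genes tested. Fas and Bcl6 had WT means of 27.9 and 11.1 FPKM, while all 10 B cell markers together came to 3.01 to 4.72 FPKM. Neither is therefore particular to B cells here. Cd79a, a chain of the B cell receptor complex, was by comparison at 0.597 to 0.991 FPKM in WT and 378 to 571 FPKM in KLF10AKO, and Cd79b at 0.756 to 1.3 and 260 to 387 FPKM.

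Other genes of replication, from a list of 40 that left out the 37 above, rose in the majority. Of 37 tested, 26 were called higher (39.4% of all genes tested), 6 lower and 5 did not pass, with a median log2 change of 0.58 over all 40. 3 of those tested (Pole, Chaf1a and Chaf1b) had a WT mean under the level filter and so passed it through KLF10AKO. The largest change was that of Pold1, the catalytic subunit of polymerase delta, at 2.69, 3.03, 2.61 and 2.70 FPKM in WT and 12.6, 12.5, 10.8 and 16.4 FPKM in KLF10AKO (log2 change 2.05, adjusted p = 5.99e-07). Dck, which salvages deoxynucleosides, followed at a log2 change of 1.87 (adjusted p = 6.13e-07). Both rose beyond any WT library.

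At the other end of that list, Pole3, a small histone-fold subunit of polymerase epsilon, changed by -0.56 (adjusted p = 0.000124), and Orc6, a subunit of the origin recognition complex, by -0.53 (adjusted p = 0.000421). Orc6 was at 12.2, 13.8, 12.7 and 13.3 FPKM in WT and 9.25, 9.62, 7.41 and 9.23 FPKM in KLF10AKO. Scaled to adipocyte markers, both turned positive, to 0.95 for Pole3 and 0.96 for Orc6, below the median of 1.38 over all genes.

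Other genes of mitosis, from a list of 50, moved in both directions. Of 37 tested, 17 were called higher, 3 lower and 17 did not pass, and 13 lay under the level filter. Among all genes tested, 39.4% were called higher and 34.9% lower, so the share called higher was near the background and the share called lower well under it. Of the 50 changes, 32 were positive. Their median log2 change was 0.18, and 4 of those tested (Ndc80, Kif20b, Dlgap5 and Trip13) passed the filter with a WT mean below it. Smc4, a condensin subunit, had the largest change, at 7.71, 7.16, 7.56 and 6.23 FPKM in WT and 27.5, 27.2, 22.8 and 29.9 FPKM in KLF10AKO (log2 change 1.83, adjusted p = 3.88e-07). Cdc25b, a phosphatase that activates Cdk1, changed by 1.10 (adjusted p = 1.92e-05). No difference between this list and the replication list was tested.

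Anln, the anillin of the cleavage furrow, was lowest in change within that list, at 2.22, 2.31, 2.13 and 2.26 FPKM in WT and 0.786, 0.744, 0.785 and 0.782 FPKM in KLF10AKO (log2 change -1.10, adjusted p = 2.06e-06), a change that was 0.03 when libraries were scaled to adipocyte markers. Spc25, a kinetochore subunit, changed by -0.48 (adjusted p = 0.00485), or by 0.72 on that scale, where the median of all genes was 1.38.

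Inhibitors of cyclin-dependent kinases moved in both directions. Of the 7 inhibitors and 3 pocket proteins, all 10 passed, 5 higher and 5 lower, with a median log2 change of -0.12 (74.3% of all genes tested passed, 39.4% higher and 34.9% lower). Cdkn1b, the p27 inhibitor of cyclin E with Cdk2, rose from a mean of 12.1 ± 0.869 to 26.0 ± 2.39 FPKM (SD, n = 4 each; log2 change 1.07, adjusted p = 3.32e-06). Cdkn2a changed by 1.34 from a low level (0.655 ± 0.268 to 2.44 ± 0.848 FPKM, SD, n = 4 each) and Cdkn2d by 0.70. Cdkn1a, the p21 inhibitor induced by p53, fell from 25.4 ± 2.15 to 13.4 ± 2.0 FPKM (SD, n = 4 each; log2 change -0.91, adjusted p = 6.06e-05).

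Cdkn2c changed by -1.15, Cdkn2b by -0.84 and Cdkn1c by -0.49, each with an adjusted p under 0.05. All 4 inhibitors that fell turned positive when libraries were scaled to adipocyte markers, to 0.61 for Cdkn1a, 0.38 for Cdkn2c, 0.56 for Cdkn2b and 1.01 for Cdkn1c, all below the median of 1.38 over all genes. The same held for Rb1, the retinoblastoma protein, which changed by -0.55 in FPKM and by 0.93 on that scale. Its relatives went the other way: Rbl1 rose by 1.06 and Rbl2 by 0.25 on the log2 scale.

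Upstream of these, the kinases of G1 rose. Cdk4 went from 14.1 ± 1.77 to 25.2 ± 1.78 FPKM (SD, n = 4 each; log2 change 0.82, adjusted p = 4.6e-05) and Cdk6 from 0.791 ± 0.0593 to 1.95 ± 0.173 FPKM (log2 change 0.93, adjusted p = 1.9e-05). Of the D cyclins that activate them, Ccnd1 changed by 0.61 and Ccnd2 by 0.23, both passing, while Ccnd3 was at 13.2 to 14.9 FPKM in WT and 13 to 14.7 FPKM in KLF10AKO and did not pass. Over the list of 12 D cyclins, G1 kinases and other E2F factors, 10 were tested, 7 were called higher and 1 lower (39.4% and 34.9% of all genes tested), with a median log2 change of 0.38.

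Among the other E2F factors, E2f2, a further activator, went the other way from E2f1. It was at 0.987, 0.739, 0.628 and 0.502 FPKM in WT and 6.83, 7.06, 5.90 and 7.96 FPKM in KLF10AKO (log2 change 2.62, SE 0.135, adjusted p = 3.54e-07). The repressor E2f4 changed by 0.95, E2f3 by -0.21 (adjusted p = 0.0186, or 0.0571 without KLF10AKO replicate 2 and 0.0566 without WT replicate 1) and E2f6 by -0.10 (adjusted p = 0.512). The last pair turned positive, to 1.15 and 1.3, when libraries were scaled to adipocyte markers, beside a median of 1.38 over all genes. E2f7 and E2f8 lay under the level filter.

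**Figure D4:**
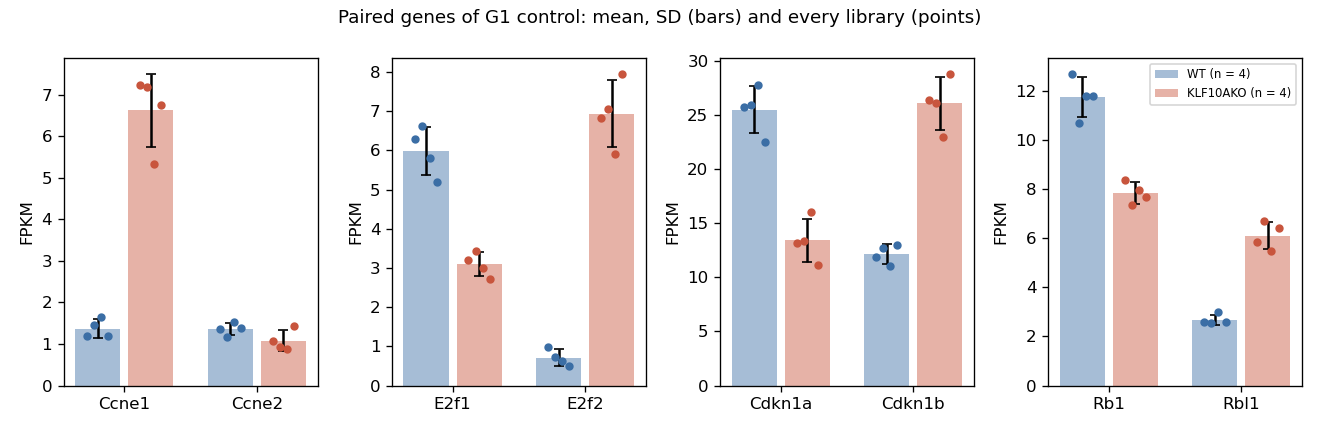
FPKM of 4 pairs of related genes of G1 control, with bars at the mean, error bars of 1 SD and points for every library (n = 4 per group). Ccne1, E2f2, Cdkn1b and Rbl1 are higher in KLF10AKO, and E2f1, Cdkn1a and Rb1 are lower, though these last turned to higher when libraries were scaled to adipocyte markers. That scaling moved the median of all genes by 1.34.

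In E2f2 with E2f1 and in Cdkn1b with Cdkn1a, the more abundant transcript changed place. The ratio of E2f2 to E2f1 was 0.157, 0.111, 0.108 and 0.0965 in WT and 2.13, 2.05, 1.97 and 2.92 in KLF10AKO. Cdkn1b relative to Cdkn1a was at 0.464, 0.490, 0.398 and 0.575 in WT and 2.0, 1.97, 1.44 and 2.59 in KLF10AKO. Rbl1 stayed below Rb1 in all libraries, at 0.203 to 0.254 in WT and 0.688 to 0.913 in KLF10AKO. A ratio within a library does not change when a library is multiplied by a common factor, and these pairs were chosen after their values were seen.

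Precision differed between the groups of genes, since levels were low. The fewest reads of any of the 37 genes in a library were 21 for a mitotic gene and 37 for an S phase gene, and the median over genes and libraries was 128. Exons of 6 of the 37 overlap those of another protein-coding gene on the opposite strand, Mcm7 and Ccne2 as given above, and Ccna2, Cdc20, Cdk2 and Lig1. The sources used here do not state whether the counting used strand.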

How the data were processed

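Poly(A)-selected RNA of 8 iWAT libraries had been sequenced. The authors deposited FPKM values and gene lengths. The mm10 genome, edgeR 3.22.5, featureCounts 1.5.0-p3 and HISAT2 2.0.5 had been used, per the submitters' processing notes; what each tool did, the annotation release and the use of strand are not stated there. Multiplied by gene length, 100% of the values were whole multiples of 1 step per library (within 0.01 of a read), which gave back whole reads: 15537863 to 17499132 per library, 1.05 to 1.09 times the authors' library size in WT and 0.901 to 0.939 times in KLF10AKO. Gene identifiers matched GENCODE M21 for 99.9% of rows, and 98.3% of the matched rows had the same coordinates, which served for exon overlaps. Promoters came from RefSeq's table for GRCm38.p6, taking for each gene the window nearest its start in the deposited table.

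KLF10AKO was compared with WT by limma 3.58.1 under R 4.3.3 (lmFit, eBayes with trend, no covariate) on log2(FPKM + 0.5) of the 16012 genes with a mean FPKM of at least 0.5. Two-sided p-values were adjusted after Benjamini and Hochberg, and those under 0.05 passed. Medians over lists came from the same model without the level filter, so that every gene entered. Counts of the genes are given beside the share of all genes called. The procedure was tested on simulated data in which only a small part of the genes changed, whereas 74.3% of genes tested passed here. That test therefore cannot show how the procedure behaves on data like these. Alternatives were pseudocounts of 1 and 0.1, no filter, a mean FPKM of at least 2, TPM, quantile normalization, scaling to the adipocyte markers, leaving out libraries one by one, voom on recovered reads, a block for replicate number, and WT against KLF10AKO replicate 4 alone, which was assumed to vary like WT.

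The 37 genes, 112 further pathway genes and 93 markers in 12 cell type lists were chosen with earlier results of these data known. Values in every library are given, by role, for the 3 genes of highest mean, those of largest and smallest change, and those that did not pass or moved against their list. For pathway lists, the 2 largest and 2 smallest changes and every inhibitor, pocket protein, D cyclin and G1 kinase are named. For cell type lists, the 2 highest members and any at 0 in a group are named, except 1 that is not reported here.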

Additional observations from a re-analysis of the deposited data

Results flagged for a closer look

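Among the 74 groups of 4 values (37 genes in each of WT and KLF10AKO), 1 held a library whose gap to its nearest neighbour was large for the group's range. In KLF10AKO replicate 2, Cenpe was at 0.568 FPKM, below the 0.659 to 0.664 FPKM of the other 3, a gap of 0.947 of the range, above Dixon's limit for 4 values. Chance flags about 1 group in 20, so a single flag among 74 is fewer than chance gives. Cenpe did not pass the comparison of the groups.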

How the results depend on the processing

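Of the 37 genes, 21 were called higher in the comparison as reported, and 35 when libraries were scaled to adipocyte markers, a scaling that moved the median of all genes by 1.34 on the log2 scale. The calls of all genes tested, 39.4% higher and 34.9% lower, became 44.0% and 25.4% with TPM, 30.9% and 44.1% with quantile normalization, 46.2% and 27.5% with voom and 85.5% and 1.68% under adipocyte scaling. TPM moved the median of all genes by 0.20. Mitotic genes called higher, 6 as reported, numbered 10 with TPM, 12 with voom and 15 under adipocyte scaling. They numbered 4 of 16 without a level filter and 3 with a mean FPKM of at least 2 (6 of the genes left). With quantile normalization they numbered 0. The cause of these differences was not tested. Medians were also taken over all 21 and all 16 genes in each of these settings, with both pseudocounts and with KLF10AKO replicate 4 alone. The S phase median lay 0.57 to 0.85 above the median of all genes and the mitotic median 0.12 to 0.37 above it. The difference of S phase and mitotic medians, 0.45 as reported, was 0.38 and 0.53 with pseudocounts of 1 and 0.1, 0.48 and 0.77 over genes with a mean FPKM of at least 0.5 and 2, 0.51 with TPM, 0.56 with quantile normalization, 0.62 under adipocyte scaling, 0.56 with voom and 0.42 with KLF10AKO replicate 4 alone. Leaving out each library in turn gave 0.41 to 0.49, and 17 to 22 genes called higher, the lowest without KLF10AKO replicate 4.

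Directions turned under adipocyte scaling for E2f1 (0.55), Cdk1 (0.50), Cdc6 (0.93) and Ccne2 (0.85) and for these other named genes: Anln 0.03, Bcl6 1.18, C1qa 1.32, Ccnd3 1.50, Cdh5 0.36, Cdkn1a 0.61, Cdkn1c 1.01, Cdkn2b 0.56, Cdkn2c 0.38, Cfd 1.07, E2f3 1.15, E2f6 1.3, Fas 0.63, Orc6 0.96, Pecam1 1.44, Pole3 0.95, Rb1 0.93 and Spc25 0.72 (log2 changes). Elsewhere C1qa turned with quantile normalization (0.01), Ccnd3 with voom (0.22), and Acta1 (-3.03) and Pvalb (-2.08) with KLF10AKO replicate 4 alone. A replicate block, with the numbers of the labels as pairs, gave 11726 passing genes against 11893 and again 21 genes called higher; Mki67 then missed the threshold (adjusted p = 0.0522) and Aurka passed (0.0327). Same-numbered libraries hardly deviated together (correlations 0.0030 to 0.031). Although 3 of 4 WT libraries correlated best with their own number, the correlations were this small, so the numbers were not used as pairs. The fewest reads of a gene in a library were 21 among mitotic and 37 among S phase genes.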

Other observations

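Markers of further cell types, which entered no comparison of the report, are given as values. Beside their counts, 39.4% of all genes tested were called higher and 34.9% lower. Plasma cell markers were called higher in 4 of 5 tested (2 of which had a WT mean under the level filter) and lower in 1, led by Mzb1 (0.202 ± 0.214 FPKM in WT and 54.1 ± 7.84 FPKM in KLF10AKO, SD, n = 4 each) and Irf4 (2.04 ± 0.408 and 9.77 ± 1.05 FPKM). Of 8 macrophage markers, 1 was higher (Lyz2, log2 change 0.86) and 5 lower, C1qa among them (-0.23). Adipose progenitor markers were lower in 4 of 6, with Dpt at a log2 change of -2.16. They were higher in 2, Dpp4 at 2.98 and Ly6a at 0.56. Endothelial markers were lower in 4 of 5, Cdh5 changing by -1.19, while Pecam1 did not pass (-0.10).

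Skeletal muscle markers were called higher in 8 of 9, of which 6 had a WT mean under the level filter, and Acta1 did not pass. Acta1 was at 160 to 213 FPKM in WT and at 1517, 1187, 2724 and 20.9 FPKM in KLF10AKO replicates 1 to 4, and Pvalb at 2.64 to 4.04 FPKM and at 1028, 786, 1825 and 0.435 FPKM. The satellite cell genes Pax7, Myf5 and Myod1 had no reads in WT. Among adipocyte markers, Cidec changed by -1.86 and Cfd by -0.49. Among T cell markers, Ccr7 changed by 6.29 and Lck by 5.62. Mammary epithelial markers were mixed, with Wap at 1.26 to 4.53 FPKM in WT and at 0 in 3 KLF10AKO libraries, Epcam at 0.0470 ± 0.0388 and 1.44 ± 0.354 FPKM (SD, n = 4 each), and Krt14 without reads in WT.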
